A study of Bos taurus with 5 samples.

Results

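Among 10163 single-spot probes compared between largest (F1) and second-largest (F2) bovine follicles, 89 gave a signal well above background in all 3 F1 and in neither of the 2 F2. These 89 probes were selected on that contrast itself. A probe was taken where the scanner software flagged its spot well above background on the 3 F1 arrays and on no F2 array. In all, 92 probes met this rule, of which the probes of FSHR, INHBB and LHCGR were left out. The 89 probes were 0.876% of all probes and 1.74% of the 5121 probes well above background in all F1. Of the 89, 8 carry a RefSeq mRNA accession and are named here, and 81 carry accessions of other kinds, such as expressed sequence tags. The reverse pattern, well above background in both F2 and in no F1, was shown by 123 probes.

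The follicles came from pregnant Japanese Black cows that had received no treatment named in the labels. Stroma and theca externa had been stripped away, so that the RNA was that of a wall of granulosa cells and theca interna. RNA of each follicle was labelled with Cy3 and hybridized to a custom bovine array of 60-base probes, 1 follicle per array. Some of the 4 cows gave a follicle to each group, so 1 or more of the F2 came from the same cow as an F1. Which follicles these were is not named, and all 5 were treated as independent. In such bulk tissue, fewer cells of a type and less RNA per cell cannot be told apart.

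Every signal below is given in thousandths of the GAPDH median, taken over the 100 GAPDH spots of the same array. The weakest spot well above background had 18.2, 20.8 and 12.4 thousandths on the arrays of F1 replicates 1, 2 and 3, and 14.5 and 16.7 on those of F2 replicates 1 and 2. A signal below these levels was not well above background, which does not show that the transcript was absent. The arrays were alike in the number of probes well above background, at 5465 to 5729 in F1 and 5488 to 5855 in F2.

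A growing antral follicle carries its hormone receptors on granulosa and theca cells, and these act through second messengers. Cyclic GMP, made by guanylyl cyclases, is known in the follicle for holding the oocyte in meiotic arrest. Oxytocin is made by bovine granulosa and luteal cells and acts through a G protein-coupled receptor. Sialyltransferases add sialic acid to the sugar chains of glycoproteins and glycolipids, and acyl-CoA synthetases activate fatty acids and other acids for metabolism. The 8 named transcripts belong to these and a few other groups.

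The probes of the named transcripts are shown because each value below is the signal of 1 such oligonucleotide, so that its transcript can be looked up. They are printed 5′ to 3′ in lower case, and the longest stretch that any pair of them shared was 7 bases.
GUCA1A: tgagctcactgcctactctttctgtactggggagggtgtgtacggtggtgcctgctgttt
PTHLH: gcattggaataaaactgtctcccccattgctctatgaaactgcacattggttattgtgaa
GUCY2C: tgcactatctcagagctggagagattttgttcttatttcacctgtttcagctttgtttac
ACSM1: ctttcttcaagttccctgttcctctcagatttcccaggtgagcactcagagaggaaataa
OXTR: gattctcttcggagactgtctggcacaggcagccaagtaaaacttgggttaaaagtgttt
NM_174723: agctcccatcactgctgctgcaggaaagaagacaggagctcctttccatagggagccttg
ST3GAL6: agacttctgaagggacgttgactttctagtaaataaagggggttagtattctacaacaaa
ST6GALNAC6: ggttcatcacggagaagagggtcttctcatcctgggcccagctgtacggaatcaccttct

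GUCA1A encodes a calcium sensor known from photoreceptors, where it regulates membrane guanylyl cyclases. Its signal was 199.5, 177.4 and 320.5 thousandths in F1 replicates 1, 2 and 3, a mean of 232.5 ± 77.0 (SD, n = 3). In the F2 it was -7.94 and 7.22, so all 3 F1 lay far above both F2. Negative signals arise where the background subtracted by the scanner software exceeded the spot. Because no F2 spot was well above background, the fold difference has only a lower bound. The bound sets the mean log2 signal of F1 against that of F2, with each F2 signal raised to the weakest well above background on its array where it was lower. By this rule GUCA1A was at least 14.5-fold higher in F1. Such a bound makes no allowance for the spread of F1 or for the scaling. It was 12.1-fold without F1 replicate 3, and 12.5-fold with signals scaled to the 75th percentile of each array in place of GAPDH.

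GUCY2C, a membrane guanylyl cyclase best known as the intestinal receptor of guanylin peptides, was the other member of the cyclic GMP system. Its signal was 133.7, 188.6 and 64.7 thousandths in F1 replicates 1, 2 and 3, a mean of 129.0 ± 62.1 (SD, n = 3), against 4.57 and 3.49 in the F2. Every F1 was above both F2, and the bound was at least 7.58-fold. The highest F1 exceeded the lowest by 2.91 times.

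PTHLH, a secreted peptide related to parathyroid hormone, had 318.1, 100.1 and 137.6 thousandths in F1 replicates 1, 2 and 3, a mean of 185.3 ± 116.5 (SD, n = 3). The F2 gave 6.01 and 1.47. The groups did not overlap, and F1 replicate 1 stood above the other F1. The bound was at least 10.5-fold, and at least 7.56-fold without that follicle.

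OXTR encodes the oxytocin receptor. Its signal was 47.0 and 35.6 thousandths in F1 replicates 1 and 2 and 132.0 in F1 replicate 3, with a mean of 71.5 ± 52.7 (SD, n = 3), and -4.81 and -17.0 in the F2. Both F2 values were below 0, and F1 replicate 3 was the high sample. The bound was at least 3.89-fold, and at least 2.63-fold without that follicle.

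ACSM1, a mitochondrial enzyme that activates medium-chain fatty acids, gave 179.2, 124.7 and 36.9 thousandths in F1 replicates 1, 2 and 3, a mean of 113.6 ± 71.8 (SD, n = 3). The F2 values of -21.0 and -11.8 were both below 0. Its F1 spread was the widest of the named transcripts, the highest being 4.86 times the lowest. The bound was at least 6.04-fold. Without F1 replicate 1, 2 or 3 it was at least 4.37-fold, 5.24-fold and 9.62-fold. The cell of F1 replicate 1 is empty for this probe in the authors' normalized table.

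ST3GAL6 and ST6GALNAC6 encode sialyltransferases of the Golgi, the first acting on galactose and the second mainly on gangliosides. ST3GAL6 had 34.8, 49.1 and 33.7 thousandths in the F1, a mean of 39.2 ± 8.61 (SD, n = 3), against -0.16 and 18.4 in the F2. ST6GALNAC6 had 21.1, 31.3 and 19.7 thousandths in the F1, a mean of 24.0 ± 6.36 (SD, n = 3), against 9.90 and -5.03. All F1 values of each gene were above both F2 values, but several lay close to the detection level. The bounds were accordingly low, at least 2.36-fold for ST3GAL6 and at least 1.51-fold for ST6GALNAC6.

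The transcript NM_174723 was matched to no gene symbol in the RefSeq table used here. Its signal was 36.1 and 35.6 thousandths in F1 replicates 1 and 2 and 101.8 in replicate 3, a mean of 57.8 ± 38.1 (SD, n = 3), against 3.09 and 1.93 in the F2. Its F1 values were all above the F2 values, and the bound was at least 3.27-fold, or at least 2.31-fold without F1 replicate 3.

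**Figure D1:**
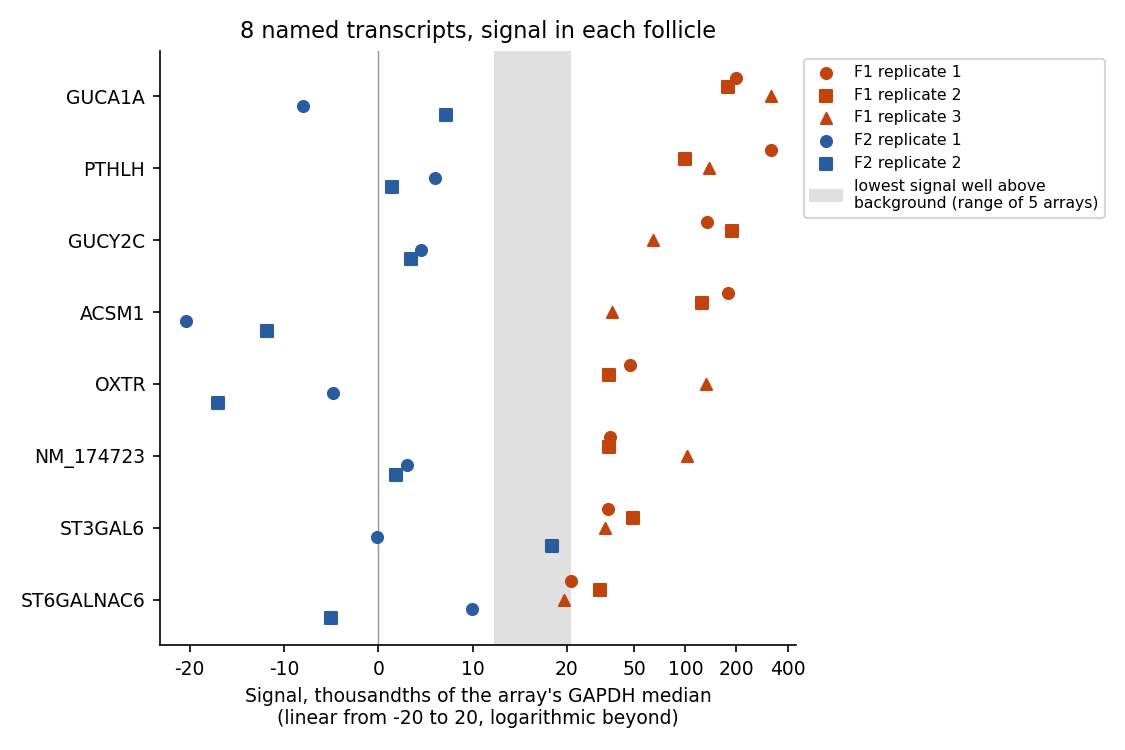
Signal of the 8 named transcripts in each follicle, in thousandths of the GAPDH median of its array (axis linear from -20 to 20 and logarithmic beyond); each point is 1 follicle, and the grey band spans the weakest signals well above background on the 5 arrays. The F1 points of GUCA1A, PTHLH and GUCY2C lie well to the right of the band, and those of ACSM1 run from 36.9 to 179.2. Those of ST6GALNAC6, at 19.7 to 31.3, lie at or just above it.

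The bounds depended on the background correction. With normexp on the raw mean and background signals and an offset of 50, they were 3.77-fold for GUCA1A, 3.14-fold for PTHLH, 2.44-fold for GUCY2C, 2.17-fold for ACSM1, 1.88-fold for OXTR, 1.73-fold for NM_174723, 1.42-fold for ST3GAL6 and 1.30-fold for ST6GALNAC6. The offset raises weak signals on every array. None of the bounds fell under 1.

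Software flags of a weaker kind separated the named transcripts further. A spot is called positive and significant where its signal differs from the local background at a p-value below 0.01, and well above background where it also exceeds 2.6 background standard deviations. ACSM1, OXTR and NM_174723 had neither flag in either F2. GUCA1A, PTHLH, GUCY2C, ST3GAL6 and ST6GALNAC6 were positive and significant in 1 of the 2 F2, though not well above background there.

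Among the 81 transcripts with other accessions, the F1 intensity ranged from 21.8 to 2614.6 and the F2 intensity from -17.7 to 23.6, in the units of the scanner before division by GAPDH. Their mean F1 signals ran from 27.0 to 1199 thousandths, with a median of 46.2. The bounds ran from 1.70 to 53.5, with a median of 2.80. A bound of at least 2-fold was reached by 64 of the 81, of at least 5-fold by 21, of at least 10-fold by 9 and of at least 20-fold by 4. Most bounds were thus under 5-fold, and a few were far above it.

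The 3 of these with the highest mean F1 signal are shown with their probes, because they had the highest bounds among the 89 and carry no gene name.
AW479592: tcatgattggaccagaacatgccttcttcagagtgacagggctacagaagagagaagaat
AJ556999: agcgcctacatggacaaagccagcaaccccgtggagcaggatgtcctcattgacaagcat
BE683227: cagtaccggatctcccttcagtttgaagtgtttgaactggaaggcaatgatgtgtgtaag

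AW479592 gave 2660, 402.1 and 536.3 thousandths in F1 replicates 1, 2 and 3, a mean of 1199 ± 1266 (SD, n = 3), against -1.91 and -2.85 in the F2. F1 replicate 1 stood far above the other two F1, and the spread was the widest of all 89. The bound was at least 53.5-fold, and at least 29.9-fold without that follicle. AJ556999 gave 1189, 744.5 and 560.0 thousandths, a mean of 831.2 ± 323.3 (SD, n = 3), against 10.7 and 9.76, with a bound of at least 50.9-fold. BE683227 was even across the F1, at 386.7, 416.7 and 278.2 thousandths, a mean of 360.5 ± 72.8 (SD, n = 3), against -7.11 and -4.50, with a bound of at least 22.9-fold. All 3 had no overlap between groups. With normexp the bounds were 10.4-fold, 11.0-fold and 4.94-fold in the same order.

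**Figure D2:**
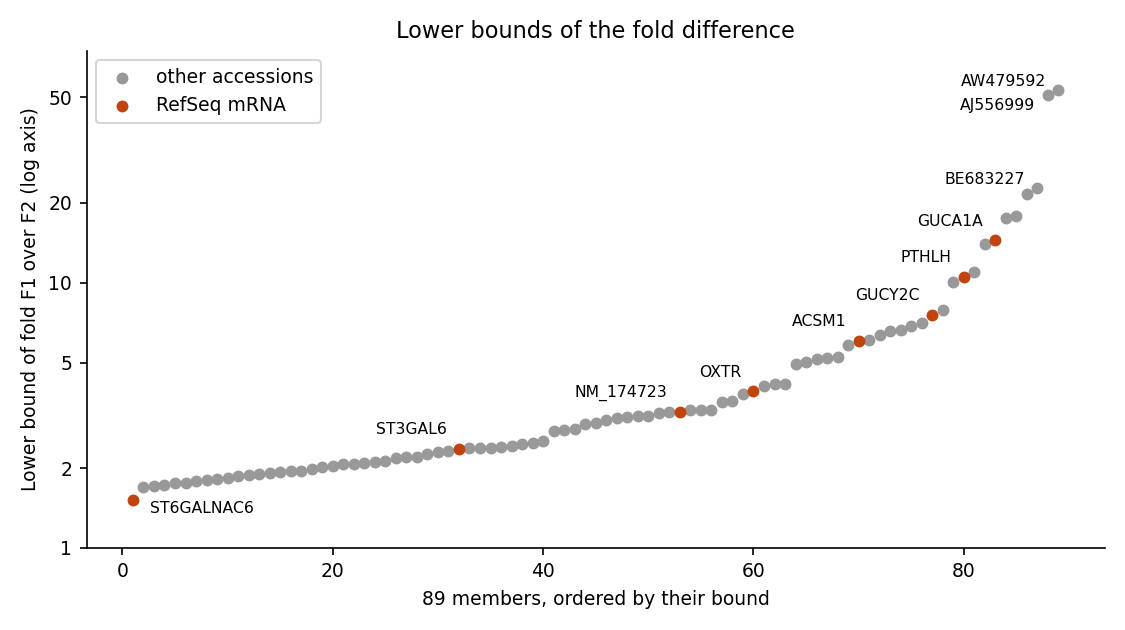
Lower bound of the fold difference of F1 over F2 for the 89 transcripts (log axis), ordered from lowest to highest; red points are the 8 with a RefSeq accession and grey points the 81 others. The bounds rise from 1.51 for ST6GALNAC6 to 53.5 for AW479592, and 71 of the 89 are at or above 2.

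Some probes shared sequence with others and could be set against them. BI536463 and BI536468 carry the same 60 bases on separate spots, and both met the rule, so the 89 probes hold 88 different sequences. AW315959 shares 55 bases with AW325368, which did not meet the rule. The shared stretch is in capitals.
BI536463: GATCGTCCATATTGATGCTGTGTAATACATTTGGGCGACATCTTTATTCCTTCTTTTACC
BI536468: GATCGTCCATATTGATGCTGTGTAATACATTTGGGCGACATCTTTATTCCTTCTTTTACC
AW315959: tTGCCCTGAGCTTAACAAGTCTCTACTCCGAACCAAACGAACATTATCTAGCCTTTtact
AW325368: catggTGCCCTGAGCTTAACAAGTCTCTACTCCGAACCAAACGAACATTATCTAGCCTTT

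BI536463 gave 250.2, 264.7 and 307.1 thousandths in the F1, against -1.10 and 9.72 for the F2. BI536468 gave 203.1, 219.9 and 232.4 in the F1, against -8.39 and -2.20. The spots thus showed the same order of follicles within F1 and the same gap to F2. AW315959 gave 465.5, 272.7 and 297.4 thousandths in the F1 against 8.36 and 16.6 in the F2, and AW325368 gave 506.3, 311.9 and 367.4 against 15.1 and 21.2. AW325368 had the same pattern, but its spot in F2 replicate 2 was flagged well above background, which kept it out.

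Partial overlaps were less alike. BE684117 had 60.8, 160.4 and 37.2 thousandths in the F1, against 1.49 and 20.4 for the F2, and BE684087, with 39 bases in common, had 52.7, 187.9 and 40.8 in the F1, against 8.31 and 67.9 for the F2. There the partner was above 2 of the 3 F1 values in F2 replicate 2. M32976 shares 50 bases with M32977, which was well above background in 2 F1 and 1 F2. AB114473 shares 30 bases with AB114474, which was well above background on no array.

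How far a detection flag can be repeated was read from the 57 pairs of spots that carry identical sequences anywhere on the array, which gave 285 comparisons within an array. In 133 of these at least 1 spot was well above background, and in 18 of the 133 (13.5%) the other was not. In the 18, the spot that was well above background had a median intensity of 31.2 and at most 41.7. The 133 include many strong pairs. Beside the 18, only 23 comparisons had both spots well above background with a mean intensity under 100. The 13.5% therefore understates how often the flag disagreed among weak spots. Of the 89 transcripts, 34 had an intensity above 41.7 in all 3 F1, and 55 had at least 1 F1 in the range in which identical spots disagreed. GUCA1A, PTHLH, GUCY2C and ACSM1 were among the 34, while OXTR, NM_174723, ST3GAL6 and ST6GALNAC6 were among the 55. Where both spots were well above background, their signals differed by a median of 1.14 times, and by 1.25 times among the 23 weak comparisons under an intensity of 100.

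**Figure D3:**
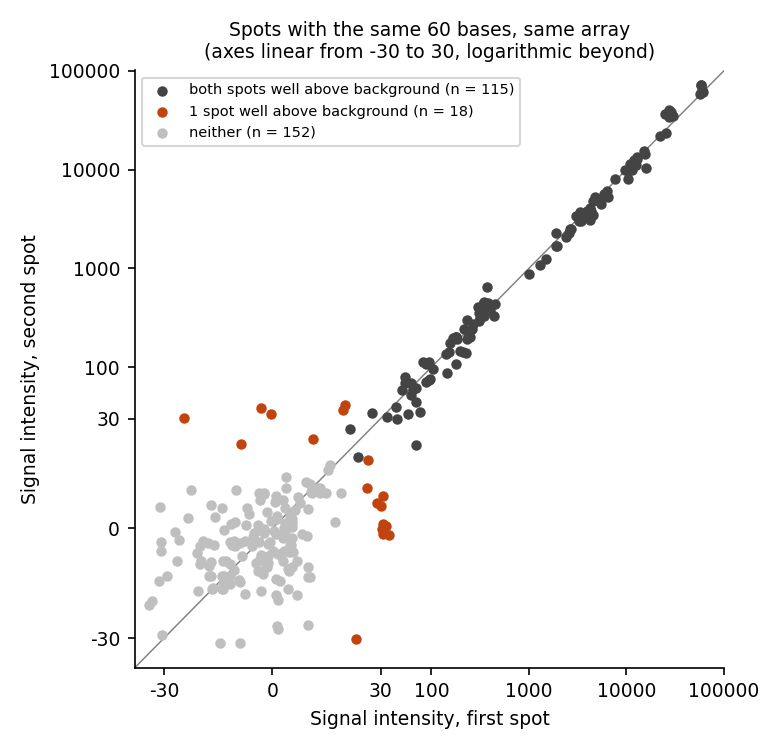
Signal intensity of 57 pairs of spots with identical probe sequences on the 5 arrays, first spot against second (axes linear from -30 to 30 and logarithmic beyond); the line marks equal signals and the colours show whether both, 1 or neither of the spots were well above background. The 18 red points, where the spots disagreed, all have a detected spot at or below 41.7, while stronger spots lie near the line.

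Across the whole set, 88 of the 89 transcripts had every F1 signal above both F2 signals on the GAPDH scale, and in 61 the lowest F1 was at least 2 times the highest F2. These counts describe the selection and carry no test, and the share of all probes with such an order was not counted. In the F2, 37 of the 89 were positive and significant in both follicles, 37 in 1 and 15 in neither. Of all 10163 probes, 6899 carried that flag in F2 replicate 1 and 7140 in F2 replicate 2. Both F2 signals were at or below 0 for 8 transcripts, and 1 of them for 24. A weak signal in F2 was therefore measured for a large part of the set.

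Within F1, the highest follicle exceeded the lowest by a median of 1.83 times over the 89 transcripts, from 1.05 to 6.62, and by 3 times or more for 9. Over 3660 probes detected in every follicle with a mean F1 signal in the same range, that median was 1.59, but most of those were stronger, with a median F1 mean of 215.7 thousandths against 48.6 for the 89. The highest F1 value was in replicate 1 for 39 transcripts, in replicate 2 for 37 and in replicate 3 for 13. Scaled to the 75th percentile of each array in place of GAPDH, these counts became 31, 32 and 26. Both scalings moved other probes alike, since replicate 3 was the highest F1 with GAPDH for 7.47% of the 4861 probes detected in every follicle and with the percentile for 31.8%. The median GC content of the 89 probes was 43.3%, as it was over all 10163 probes.

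Transcripts at the edge of the rule show what the flag divided. Just inside, the RefSeq members whose lowest F1 signal was nearest the detection level were ST6GALNAC6, NM_174723 and OXTR, whose values are given above. Just outside, 168 probes were well above background in all 3 F1 and in 1 F2, 14 of them with a RefSeq accession. FUT1, a fucosyltransferase, had 98.8, 85.4 and 37.2 thousandths in the F1 against 16.7 and 3.40 in the F2. SLCO2A1, a prostaglandin transporter, had 41.2, 54.0 and 26.6 against 11.2 and 21.2. ALDH6A1, a mitochondrial enzyme of valine breakdown, had 57.1, 30.5 and 17.4 against 11.3 and 22.3, so that its groups overlapped.

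Another 138 probes, 20 of them RefSeq, were well above background in 2 F1 and no F2. The gene listed as GAT had 81.1, -3.44 and 42.9 thousandths in the F1, against 0.36 and 4.40 for the F2. HPSE, the heparan sulfate-cleaving enzyme heparanase, had 15.2, 56.2 and 37.4 against 11.3 and 15.3. FECH, which makes heme, had 53.6, 34.5 and 8.995 against 11.1 and 8.11. In each of these 3 it was 1 F1 follicle that fell short of the flag.

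The count rested on how detection was defined. With the weaker flag on every array, 86 probes were found, but only 15 of them were among the 89. Requiring that F2 spots have neither flag left 15 probes, with ACSM1, OXTR and NM_174723 as the RefSeq members. Requiring a 5-fold gap between the lowest F1 and the highest F2 left 31, and the RefSeq members among these were all but ST3GAL6 and ST6GALNAC6. Without F1 replicate 1, 2 or 3 the rule gave 127, 162 and 116 probes, and without F2 replicate 1 or 2 it gave 151 and 195. The 89 were among the probes found in each of those 5 cases, as dropping an array can only add probes.

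**Figure D4:**
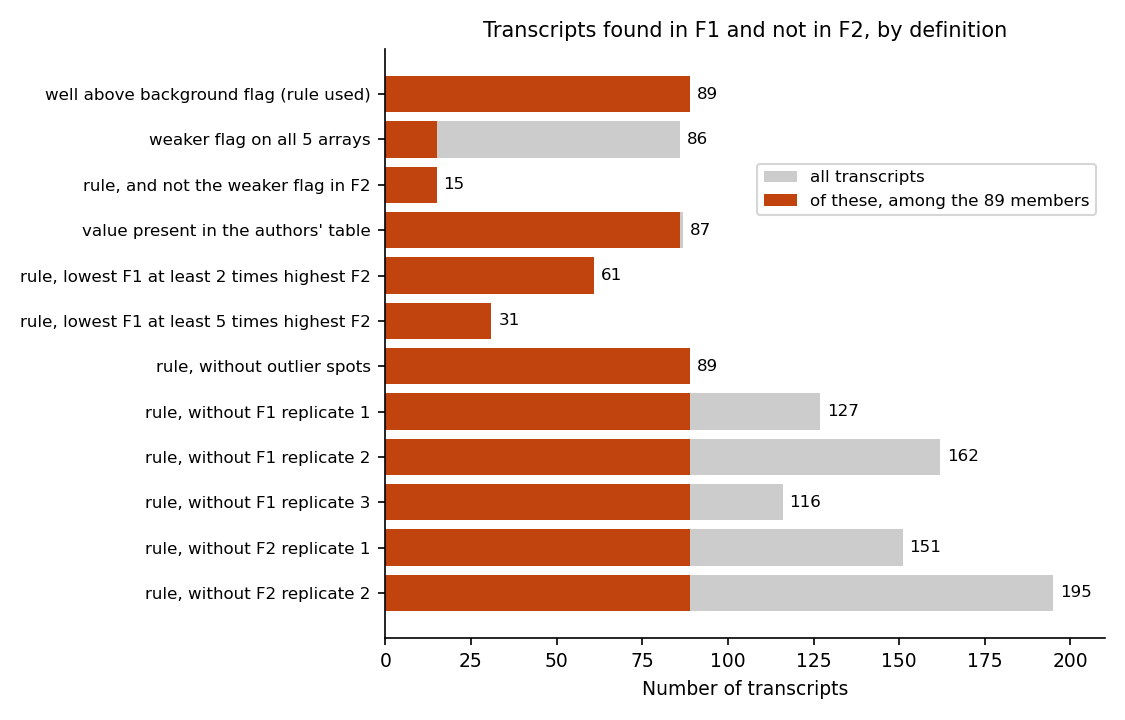
Number of probes found in F1 and not in F2 under the rule used and 11 other definitions (bars start at 0); the red part counts probes that are among the 89. The weaker flag gives 86 probes of which 15 are shared, and leaving out F2 replicate 2 gives 195.

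The genes around the named transcripts were compared between F1 and F2 with limma over 5528 probes, those flagged well above background throughout F1, throughout F2 or in both groups, with Benjamini-Hochberg adjustment over all of them. Of these, 6.39% were called higher in F1 and 5.08% higher in F2 at an adjusted p below 0.05. All 89 transcripts passed that filter through F1 alone, and 54 of them had an adjusted p below 0.05, which is no result since they were chosen on the same contrast. The median difference over all tested probes was 0.27 on the log2 scale with GAPDH and 0.06 with the 75th percentile. The relatives below were picked for their families after the 89 were known, each with 1 probe, and levels are not compared between probes.

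In the guanylyl cyclase system, NPR2, the receptor for C-type natriuretic peptide and itself a guanylyl cyclase, was 3.20-fold higher in F1. Its signal was 378.9, 480.1 and 331.9 thousandths in the F1 against 87.9 and 171.6 in the F2, with no overlap (log2 difference 1.68 ± 0.38 SE, limma adjusted p = 0.040). It missed the threshold when any 1 follicle was left out, with adjusted p from 0.070 to 0.228. GUCA1B, the close relative of GUCA1A, was well above background on all 5 arrays, at 46.2, 51.1 and 23.4 against 25.2 and 21.0 (log2 difference 0.73, limma adjusted p = 0.283). GUCY2D and GUCY2F, the retinal cyclases that GUCA1A is known to regulate, were well above background on no array, and neither was NPR3, the natriuretic peptide clearance receptor. The subunits of the nitric oxide receptor had log2 differences of -1.10 for GUCY1A1 and -0.33 for GUCY1B1 (limma adjusted p = 0.634 and 0.637). GUCY1A1 had 25.3, 33.1 and 1.14 thousandths in the F1 against 21.6 and 20.6 in the F2. Its negative difference thus rests on F1 replicate 3, and with the replicate block, where that follicle does not enter the difference, it was 0.46.

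Among the sialyltransferases, ST3GAL4 was higher in F1 and ST3GAL5, which makes ganglioside GM3, was higher in F2. ST3GAL4 was saturated on all 3 F1 arrays, at 60124, 66744 and 41596 thousandths in the F1 against 6185 and 8638 in the F2. On the GAPDH scale this places it at least 7.53-fold higher (log2 difference 2.91, limma adjusted p = 0.0040). With the 75th percentile the log2 difference of ST3GAL4 was 2.70. Without F2 replicate 1 its adjusted p was 0.094. ST3GAL5 had 47.1, 82.9 and 60.2 thousandths in the F1, against 183.5 and 157.0 for the F2, a fold of 2.75 (log2 difference -1.46 ± 0.33 SE, limma adjusted p = 0.041). Its call was lost with replicate number as a block (adjusted p = 0.084) and on leaving out any follicle but F1 replicate 2, with adjusted p up to 0.266. ST6GALNAC4 had a log2 difference of 0.07 (limma adjusted p = 0.885). ST3GAL2, ST6GAL1 and ST8SIA3 were well above background on no array, and ST8SIA4 in F2 replicate 2 alone.

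**Figure D5:**
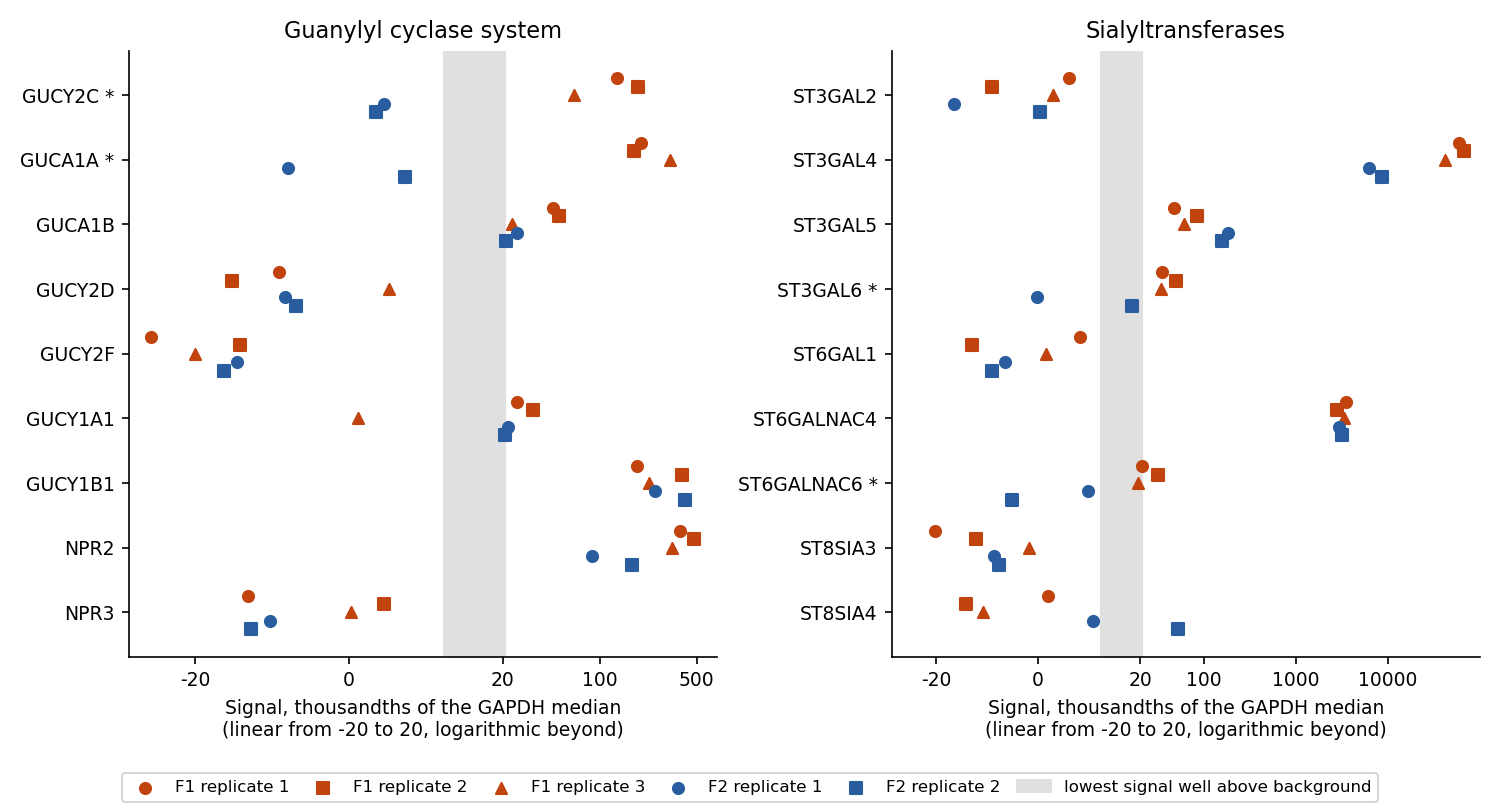
Signal of the guanylyl cyclase system (left) and of the sialyltransferases (right) in each follicle, in thousandths of the GAPDH median (axis linear from -20 to 20 and logarithmic beyond); each point is 1 follicle, asterisks mark members of the 89, and the grey band spans the weakest signals well above background. ST3GAL5 is the gene of both panels with all F2 to the right of all F1 and every point above the band, and GUCY2D and GUCY2F have no point in or above it.

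For the oxytocin receptor, the ligand gene OXT was measured on all 5 arrays. It had 689.4, 155.2 and 978.0 thousandths in the F1, against 4240 and 384.3 for the F2, with wide overlap (log2 difference -1.44 ± 1.17 SE, limma adjusted p = 0.448). The vasopressin receptor AVPR2 had a log2 difference of 0.38 (limma adjusted p = 0.534), and AVP itself was well above background in F1 replicate 1 alone. PTH, the relative of PTHLH, was well above background on no array. ACSS1, a mitochondrial acetyl-CoA synthetase, had 873.9, 818.2 and 576.4 thousandths in the F1, against 289.0 and 359.0 for the F2, without overlap (log2 difference 1.21 ± 0.31 SE, limma adjusted p = 0.057). It was called with the 75th percentile (limma adjusted p = 0.023). With the replicate block (limma adjusted p = 0.061) or any 1 F1 left out (limma adjusted p from 0.053 to 0.163) it was not.

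Lists that hold a named transcript or its ligand were counted by their other genes. Of 9 tested genes of calcium binding and signalling besides GUCA1A, RGN was higher in F1, S100A4, S100A10 and S100A12 were higher in F2, and 5 were not called, with a median log2 difference of -0.19. Of 4 tested growth factor and receptor genes outside the TGF-beta and IGF families besides PTHLH, PGF was higher in F1 and 3 were not called, with a median of 0.14. Of 12 tested neuronal and neurotransmitter genes, among them OXT, none was higher in F1, TAC3 and PCSK1 were higher in F2 and 10 were not called, with a median of -0.90. TAC3 and PCSK1 were well above background in no F1 and entered the test only through F2, where they were high. With a filter of all 5 arrays, 7 genes of this list were tested, TAC3 and PCSK1 not among them, and the count higher in F2 went from 2 to 0. Without a filter 28 genes of this list were tested, and with the authors' values 8, and each time 0 were higher in F2. The calls of RGN, the 3 S100 genes, PGF and TAC3 were lost without F2 replicate 1 and without F2 replicate 2. That of PCSK1 was kept in all 5 cases, which is no support, since it entered each of those fits through F2 alone. S100A4 was also lost without each F1 in turn and with the replicate block (adjusted p = 0.086 with the block), and S100A10 without F1 replicate 1 (limma adjusted p = 0.064).

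Markers of the cell types that the wall can hold were counted in the same fit. All 10 granulosa cell markers tested were called higher in F1, but FSHR and LHCGR met the selection rule themselves, and these and CYP19A1 entered the test only through F1. With a filter of all 5 arrays, 7 were tested and 7 called. Summed signals of the 10 were 266.4 to 366.3 times the GAPDH median in F1 and 21.1 to 33.7 in F2, with some F1 spots saturated. In these and the sums below, negative signals were left out. Without F2 replicate 1, 6 of the 10 were called.

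Of 7 theca cell markers, LHCGR again among them, 4 were called higher in F1, and 1 was without F2 replicate 1. STAR, which brings cholesterol into mitochondria for steroid synthesis, lay the other way without overlap, at 5559, 3140 and 5331 thousandths in the F1 against 16124 and 9911 (log2 difference -1.48, limma adjusted p = 0.059). It was not called with the 75th percentile (limma adjusted p = 0.070) or with any 1 F1 left out (limma adjusted p from 0.093 to 0.129). The replicate block gave a limma adjusted p of 0.042. That block pairs follicles by a number that the labels do not tie, and F1 replicate 3 does not enter its difference. With a filter of all 5 arrays, 6 theca markers were tested, 3 called higher in F1 and 1 higher in F2. The theca sums were 69.5 to 105.3 times the GAPDH median in F1 against 30.2 to 33.4 in F2.

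Of 4 tested leukocyte markers, CD14, CD3E and AIF1 were called higher in F2, with sums over 5 probes of 0.90 to 1.03 in F1 and 1.54 to 1.80 in F2, and no call was kept without either F2. Most of each leukocyte sum came from ITGB2, at 0.83 to 0.90 in F1 and 1.13 and 1.46 in F2, which was not called (limma adjusted p = 0.217). CD3E was well above background in no F1 and entered the test only through F2, and with a filter of all 5 arrays 3 were tested and 2 called. Of 4 endothelial markers, SELP was called higher in F2, and PECAM1, TEK and TIE1 were not called (limma adjusted p = 0.282, 0.398 and 0.677). The endothelial sums were 0.16 to 0.25 in F1 against 0.76 to 1.11 in F2, and without SELP they overlapped, at 0.11 to 0.17 against 0.13 to 0.25. CDH5 and SELE were well above background on no array. Of 4 stromal markers, LUM was called higher in F2, with sums of 5.70 to 9.51 against 10.1 to 17.1. Most of each sum came from DCN, which overlapped between groups, at 3.74 to 6.87 in F1 against 5.77 and 12.2 in F2. DCN and FBN1 were not called (limma adjusted p = 0.278 and 0.079), though FBN1 lay higher in F2 without overlap. COL1A2 lay slightly the other way (log2 difference 0.16, limma adjusted p = 0.752). SELP was not called without F2 replicate 1 or without F2 replicate 2, and LUM was not called when any follicle but F1 replicate 2 was left out (limma adjusted p from 0.081 to 0.206) or with the replicate block (adjusted p = 0.055). Of 6 oocyte markers, ZP3 was well above background on all 5 arrays and ZP2 in 1 F1 and 1 F2. ZP3 had 305.4, 188.6 and 174.8 thousandths in the F1 against 197.5 and 270.3 in the F2 (log2 difference -0.10, limma adjusted p = 0.875). The others, ZP4, GDF9, NLRP5 and DDX4, were well above background on no array, and neither was HBB, the erythroid marker. The part of cell composition in the 89 transcripts was not tested.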

How the data were processed

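Total RNA of 3 F1 and 2 F2 was measured on 5 one-color arrays. The authors extracted spots with Agilent software, and the deposited scanner files give background-subtracted processed signal intensity, raw mean and background intensity, detection flags as scores of 0 or 1 and a p-value of spot against background. The deposited normalized table holds the ratio of processed signal to the GAPDH median of the array. Genome build is not given in the sources used here. Here each processed signal was taken relative to the GAPDH median, raised to at least 0.001 of it and log2 transformed for limma 3.58.1 (lmFit and eBayes, two-sided) in R 4.3.3, a step checked on simulated data. Tables were made with pandas 2.3.3 in Python 3.11.15. The number of arrays limits the precision: with 3 follicles against 2, the smallest exact permutation p is 0.1.

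Members and lists were chosen with earlier results of these data known. By the rule for named genes, every member with a RefSeq mRNA accession, the 3 others with the highest F1 mean, and 3 RefSeq probes on each outer side of the rule were named, with up to 3 called genes of a list in each direction. Probes sharing 20 or more bases, the families and markers that were undetected or not called were named after their values were seen. Of 1415 RefSeq probes, 1364 were matched to a symbol (RefSeq table of assembly ARS-UCD2.0, for names alone). Spots with outlier flags were left out of the limma fits, apart from the fit on the authors' values. They stayed in the count of members, with an alternative count made without them. The other alternatives were other detection flags, gaps, filters, scalings, background correction, floors, a replicate block and leaving out each follicle. The block pairs follicles by replicate number, so F1 replicate 3, which has no partner, does not enter its differences. Promoter and protein sequences are not analysed here.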

Additional observations from a re-analysis of the deposited data

How the results depend on the processing

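The 89 transcripts became 15 when no F2 spot could carry either flag and 31 with a 5-fold gap, and 116 to 195 when 1 follicle was left out. The count was 86 with the weaker flag, 87 in the authors' table, 61 with a 2-fold gap and 89 without outlier spots. Of 77 recomputed fold bounds, 67 moved by less than 1 SD of the F1 replicates, 10 moved further, all with normexp, and none fell under 1. Over all probes, the 634 calls (353 higher in F1 and 281 higher in F2) became 214 without a filter and 346 with a filter of at least 1 array, and 160 to 550 with 1 follicle left out, the lowest without F2 replicate 1. Other settings gave 578 calls with a replicate block, 865 with the 75th percentile (422 higher in F1 and 443 higher in F2), 901 with quantile normalization (441 and 460), 743 with normexp, 631 with the authors' values, 666 with a filter of all 5 arrays, 888 with a floor of 0.01 and 887 with an intensity trend. The cause of these shifts was not tested. Nothing in the labels ties follicles of the same number together: deviations of same-numbered follicles correlated at 0.06 and 0.26 over probes, and of the 634 calls 465 were shared by the replicate block. Signals near the background limit the 89, since 45 had an F1 signal within 2 times the detection level of its array.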
